A study of Mus musculus with 8 samples.

Results

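The genes described here are the core of the MHC class I antigen presentation pathway: H2-K1, H2-D1, B2m, Tap1, Tap2, Tapbp, Psmb8, Psmb9, Psmb10 and Nlrc5. They were chosen by name but with earlier results of these data known, so the choice was not blind to them. All 10 were found among the 31252 genes of the deposited comparison tables. They were followed in 3T3-L1 cells, a mouse preadipocyte line that turns into fat cells under hormonal induction. The study asked how Maf1 and the repression of RNA polymerase III transcription bear on adipocyte differentiation. There were 8 RNA sequencing libraries, 1 for each of 4 conditions at day 2 and at day 0.

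The shMaf1 cells carried a short hairpin RNA against Maf1, a repressor of RNA polymerase III. The shBrf1 cells carried a hairpin against Brf1, a subunit of the TFIIIB factor that recruits this polymerase, and the ML-60218 cells received ML-60218, an inhibitor of it. Control cells carried the empty shRNA vector. Day 0 cells were collected 2 days after confluence. Day 2 cells, of all 4 conditions, had then been kept for 2 days with insulin (10 µg/mL), dexamethasone (2 µM), ascorbic acid (25 µg/mL) and the phosphodiesterase inhibitor IBMX (0.5 mM). The labels give no vector for the ML-60218 cells, no dose of the compound and no vehicle for the controls, so a difference between ML-60218 and control cells cannot be told apart from one of vector or vehicle. They name no clone, no hairpin sequence and no second culture.

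MHC class I molecules show short peptides from inside the cell to CD8+ T cells. The immunoproteasome, in which the inducible subunits Psmb8, Psmb9 and Psmb10 stand in for the constitutive catalytic subunits, cuts proteins into peptides. The TAP1 and TAP2 transporter carries the peptides into the endoplasmic reticulum, where tapasin (Tapbp) helps to load them onto a heavy chain (H2-K or H2-D) paired with beta-2-microglobulin (B2m). NLRC5 is a transcriptional activator that acts at the promoters of class I genes, which share an upstream module bound by RFX, CREB or ATF, and NF-Y proteins. Interferons are known to raise the whole set, and fibroblast-like cells are known to express it at a basal level.

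With the coordinates of the mouse build GRCm38 (mm10), 7 of the 10 genes lie on chromosome 17 in the major histocompatibility complex, spread over 1348 kb from Tapbp to H2-D1. Psmb9, Tap1, Psmb8 and Tap2 are packed into 34.22 kb of it. B2m is on chromosome 2, and Psmb10 and Nlrc5 are on chromosome 8. Promoters of 8 members, covering 250 bases before to 50 after the start, were listed by RefSeq (GRCm38.p6), with none used here for Tap2 and Nlrc5. The following 65-base stretches of the B2m, H2-D1 and H2-K1 promoters are shown because all 3 hold the same pair of short motifs at the same spacing. Capitals mark TGACG, the core letters bound by CREB and ATF proteins, and ATTGG, the reverse of the CCAAT box that NF-Y binds, with 20 bases between them.
B2m: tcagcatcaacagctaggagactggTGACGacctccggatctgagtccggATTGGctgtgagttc
H2-D1: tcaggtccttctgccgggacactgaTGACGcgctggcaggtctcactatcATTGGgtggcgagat
H2-K1: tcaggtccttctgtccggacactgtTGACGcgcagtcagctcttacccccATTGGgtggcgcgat
The stretches lie at chr2:122147584-122147648 on the plus strand, at chr17:35262968-35263032 on the plus strand and at chr17:34000349-34000413 on the minus strand. TGACG began at position -78 from the B2m start and at -101 from the H2-D1 start. H2-D1 and H2-K1 were identical at 54 of the 65 bases, and B2m matched each of them at 29.

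The spaced pair was searched for after its matches in these promoters had been seen, so its count in the set is not a test. It was present for 3 of the 8 genes of the set with a listed promoter. Of all 32851 mouse promoter entries of the same length 31 held it (0.0944%). These belong to 27 genes, among them H2-M3, another class I gene. Counts for the set are of genes and shares of all promoters are of entries, and a gene such as H2-K1 can have more than 1 entry. The other motifs were searched on both strands as plain letters. TGACG was in 5 of the 8 promoters, against 20.8% of all promoters, and CCAAT was in 6 of 8, against 37.4%. The windows of Tap1 and Psmb9 overlap by 275 of 300 bases, so 1 TGACG and 1 CCAAT are counted for both genes. GAAA, any 2 bases and GAAA again, like the letters of an interferon-stimulated response element, were found in B2m alone, as GAAACTGAAA at position -139, and in 3.44% of all promoters. GGGA, any 3 bases and TCC, like the letters of an NF-kB site, were also found in B2m alone, as GGGAAAGTCC at position -127 (4.59% of all promoters). TTC, any 3 bases and GAA, like the letters of a gamma-activated site, were found in Psmb8 alone, as TTCCCAGAA (8.30%). A match describes letters only, and no binding was measured. Only these fixed letters were searched, so a promoter without a match may hold a variant of the element. The H2-D1 and H2-K1 promoters hold GGGGATTCCCC and CAGTTTCACTT, for example, which these letters do not match.

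By the RefSeq starts, Tap1 and Psmb9 are transcribed away from each other from positions 226 bases apart. The gene bounds of GENCODE M21 overlap there, with Psmb9 reaching to 34187764 and Tap1 beginning at 34187553. The 225 bases between the 2 starts are shown because both genes share them as promoter sequence, read along the plus strand (chr17:34187331-34187555) from the Psmb9 side to the Tap1 side. Capitals mark CCAAT and TGACG, 1 match each.
Tap1 and Psmb9: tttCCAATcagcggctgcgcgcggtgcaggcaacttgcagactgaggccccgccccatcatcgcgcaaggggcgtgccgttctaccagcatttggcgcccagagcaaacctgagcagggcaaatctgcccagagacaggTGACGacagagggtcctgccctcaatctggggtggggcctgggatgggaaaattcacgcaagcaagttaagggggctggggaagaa
CCAAT lies at position -8 from the Psmb9 start, where it reads ATTGG in the direction of that gene, and at -222 from the Tap1 start.

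Library totals were between 29035505 and 31759559 estimated read pairs. The shBrf1 library of day 2 stood apart, with 7.80% of reads on ribosomal RNA against 0.46% to 0.93% in the other 7, and a 3′ bias score of 0.36 against 0.06 to 0.22. Its 3′ bias was followed by that of ML-60218 cells at day 2 (0.22). The knockdowns were checked first. Maf1 had 11.96 and 13.1 CPM in shMaf1 cells at day 2 and day 0, against 59.8 and 55.8 CPM in control cells (5.00- and 4.26-fold lower). Brf1 had 13.5 and 19.0 CPM in shBrf1 cells, against 27.8 and 32.9 CPM in control cells (2.06- and 1.73-fold lower). CPM stands for a count scaled to library size, here with TMM over all 8 libraries together. The 7 fibroblast markers were all expressed, with summed levels of 10011 to 30930 CPM. Of the immune cell markers, Ptprc reached at most 1 count in any library, and Cd3e had 0 counts in every library. Of 9 class II genes, Cd74, H2-DMa and H2-DMb1 had a mean of 1 CPM or more and reached 1144, 462 and 140 counts, while H2-Aa, H2-Ab1 and Ciita reached at most 1, 6 and 4. The class II list summed to 10.8 to 48.0 CPM.

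With 1 library per group no test between conditions was possible, and no spread between cultures could be given. Each fold difference has an exact 95% interval that covers counting error only. The size rule for calling a gene higher or lower was a log2 ratio of at least 1 in size, taken after adding 0.5 CPM, with at least 1 CPM in the higher library. Because these are bulk RNA samples, fewer cells expressing a gene and less of its RNA per cell cannot be told apart. The 3T3 lines derive from Swiss mice, whereas mm10 is the genome of C57BL/6J. The effect of differing H2 alleles on the counts was not measured.

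At day 2 the pathway was higher as a set in shMaf1 cells and lower in shBrf1 cells. All 10 genes had a positive log2 ratio in shMaf1 against control cells, with a median of 1.02 beside -0.001 for the 12233 genes tested. All 10 had a negative one in shBrf1 against control cells, with a median of -0.75 beside 0.01 for 12130 genes. In ML-60218 cells 9 of 10 were below control, with a median of -0.41 beside 0.01 for 12073 genes. The exception was H2-K1, at a log2 ratio of 0.07, whose sign turned under library totals alone, spike-in scaling or removal of a transcript-length trend. The comparisons share their control library, so they are not independent of each other.

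By the size rule 5 of the 10 genes were higher in shMaf1 than in control cells at day 2: H2-K1, Tap1, Psmb8, Psmb9 and Nlrc5. Of all genes tested in that comparison 4.57% were higher and 3.48% lower. None of the 10 was lower. In shBrf1 cells 2 of the 10 were lower than in control cells, H2-K1 and Nlrc5, where 5.5% of all genes were lower and 3.11% higher. In ML-60218 cells 2 of the 10 were lower, Tap1 and Nlrc5, where 3.11% of all genes were lower and 1.77% higher. Nlrc5 was thus past the size rule in all 3 comparisons with the shared control library, but with a pseudocount of 1 CPM in place of 0.5 it passed in shMaf1 cells alone. Psmb9 was just short of it in shBrf1 and in ML-60218 cells, with log2 ratios of -0.92 and -0.97. In the authors' deposited table its log2 fold changes there were -1.02 and -1.08, past the rule, which makes both counts 3. By that measure 6.85% and 4.32% of all genes were lower. Under spike-in scaling 10 members were lower in shBrf1 and 5 in ML-60218 than in control cells, where 25.4% and 12.6% of all genes were lower.

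**Figure D1:**
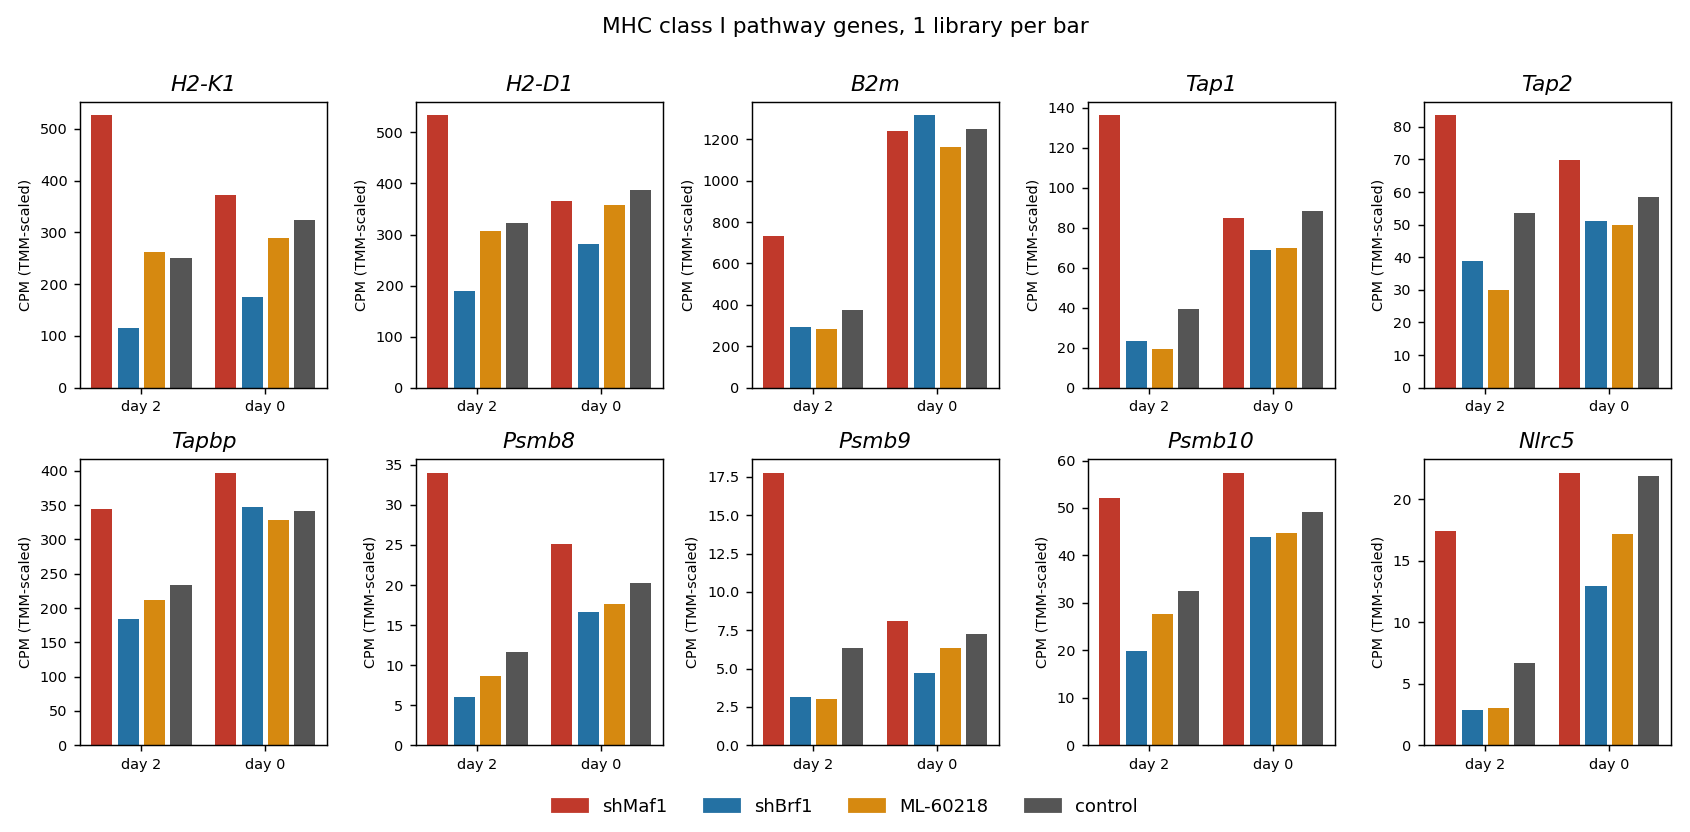
Level of each of the 10 genes in CPM (TMM-scaled; each panel has its own axis from 0), 1 bar per library, with shMaf1, shBrf1, ML-60218 and control from left to right within day 2 and then day 0. In every panel the shMaf1 bar is the highest of the 4 at day 2, and the shBrf1 or the ML-60218 bar is the lowest.

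The heavy chain genes encode the part of the class I molecule that holds the peptide. At day 2 H2-K1 had 526 CPM in shMaf1 cells, 116 CPM in shBrf1 cells and 263 CPM in ML-60218 cells, against 251 CPM in control cells. Its day 0 levels were 372, 175 and 290 CPM in the same order, against 324 CPM in control cells. The shMaf1 library was the highest and the shBrf1 library the lowest on both days. H2-K1 (chr17:33996012-34000333, minus strand) was 2.10-fold higher in shMaf1 than in control cells at day 2 (95% interval 2.04 to 2.16) and 2.16-fold lower in shBrf1 than in control cells (2.07 to 2.26).

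H2-D1 (chr17:35263094-35267497, plus strand) had 534 CPM in shMaf1 cells, 190 CPM in shBrf1 cells and 306 CPM in ML-60218 cells at day 2, against 323 CPM in control cells. The levels at day 0 were 366, 282 and 358 CPM, against 386 CPM in control cells. Only shMaf1 exceeded control at day 2, and no perturbed library did at day 0. The fold difference at day 2 was 1.65 in shMaf1 over control cells (1.61 to 1.69), and H2-D1 was 1.70-fold lower in shBrf1 than in control cells (1.64 to 1.76).

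The balance of the heavy chains does not depend on how libraries are scaled. Counted per base of transcript, the ratio of H2-K1 to H2-D1 at day 2 was 1.28 in shMaf1 cells, 0.793 in shBrf1 cells and 1.11 in ML-60218 cells, against 1.01 in control cells. At day 0 it was 1.32, 0.809 and 1.05, against 1.09 in control cells. The ratio was above that of control in shMaf1 cells and below it in shBrf1 cells on both days, with intervals that did not overlap those of control. The 2 genes have coding sequences that are 88.3% identical, and 8.22% of the windows of H2-K1 and 13.7% of those of H2-D1, cut at the read length of 51 bases, also occur in other genes. How reads were divided between such copies is not given in the sources used here, so the split between H2-K1 and H2-D1 is uncertain to that extent.

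B2m (chr2:122147687-122153082, plus strand) encodes the light chain that every class I heavy chain needs. At day 2 it had 732 CPM in shMaf1 cells, 293 CPM in shBrf1 cells and 281 CPM in ML-60218 cells, against 373 CPM in control cells. At day 0 it had 1240, 1317 and 1164 CPM, against 1248 CPM in control cells. The 4 libraries of day 0 lay close together and far above those of day 2. B2m was 1.96-fold higher in shMaf1 than in control cells at day 2 (1.92 to 2.01), just under the size rule. It was 1.28-fold lower in shBrf1 (1.24 to 1.31) and 1.33-fold lower in ML-60218 than in control cells (1.29 to 1.37).

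**Figure D2:**
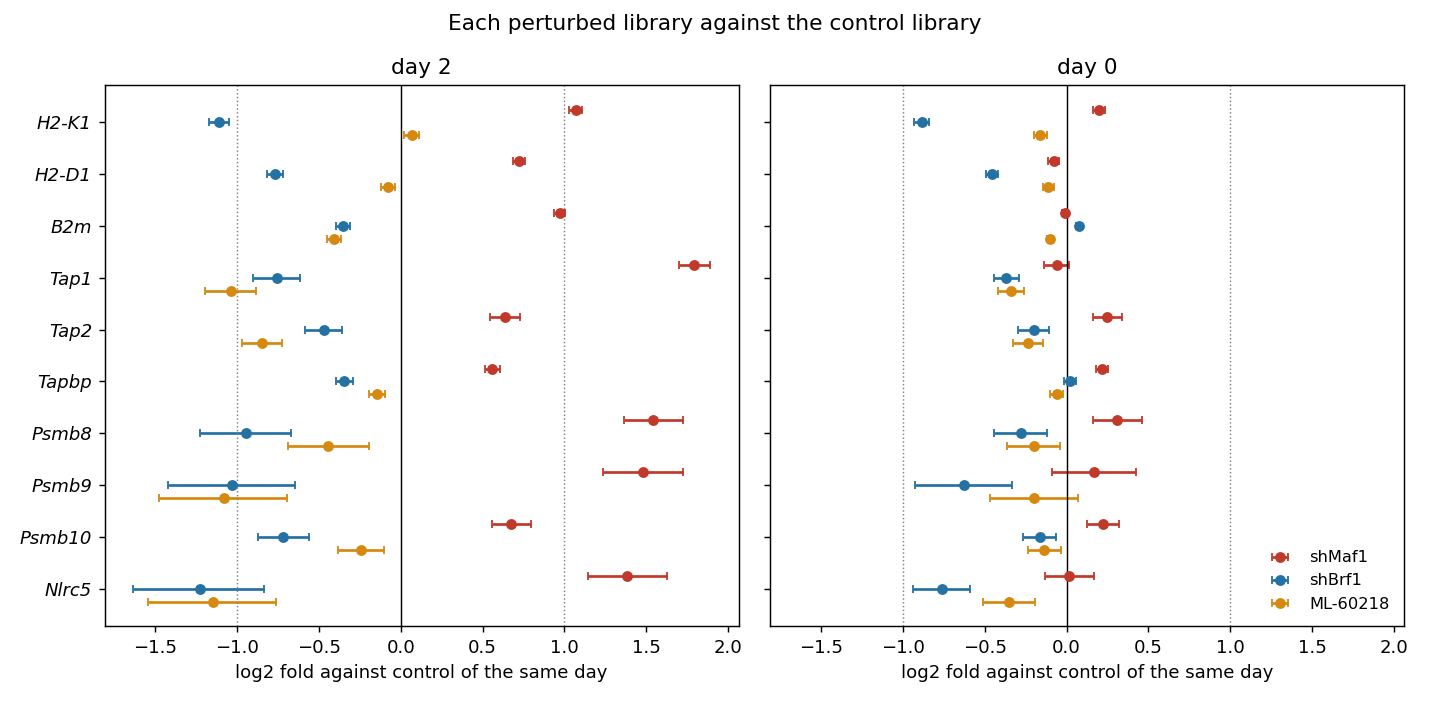
Log2 fold of each gene in shMaf1, shBrf1 and ML-60218 cells over control cells of the same day, at day 2 on the left and day 0 on the right; points are 1 library against 1, without pseudocount, bars are exact 95% counting intervals, and dotted lines mark a fold of 2. At day 2 all shMaf1 points lie right of 0 and all shBrf1 points left of it, while at day 0 no point passes a fold of 2.

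Tap1 (chr17:34187556-34197225) and Tap2 (chr17:34204479-34216321), on the plus strand, encode the paired chains of the peptide transporter. Tap1 had 136 CPM in shMaf1 cells, 23.3 CPM in shBrf1 cells and 19.2 CPM in ML-60218 cells at day 2, against 39.4 CPM in control cells. Its day 0 levels were 85.0, 68.7 and 70.0 CPM, against 88.6 CPM in control cells. Tap1 had the highest fold of the set in shMaf1 over control cells at day 2, 3.46 (3.24 to 3.70). It was 2.05-fold lower in ML-60218 than in control cells (1.85 to 2.29), which is past the size rule, and 1.69-fold lower in shBrf1 than in control cells (1.53 to 1.87), which is not.

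Tap2 varied less. It had 83.6 CPM in shMaf1 cells, 38.7 CPM in shBrf1 cells and 29.8 CPM in ML-60218 cells at day 2, against 53.7 CPM in control cells. The levels at day 0 were 69.7, 50.96 and 49.8 CPM, against 58.6 CPM in control cells. The order of the 4 conditions was the same on both days, with the shMaf1 library highest and the ML-60218 library lowest. The fold at day 2 was 1.56 in shMaf1 over control cells (1.46 to 1.66), and Tap2 was 1.80-fold lower in ML-60218 than in control cells (1.65 to 1.96).

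Per base of transcript, the ratio of Tap1 to Tap2 at day 2 was 1.901 in shMaf1 cells (1.81 to 2.00), 0.701 in shBrf1 cells and 0.748 in ML-60218 cells, against 0.855 in control cells (0.792 to 0.923). The day 0 ratios were 1.42, 1.57 and 1.64, against 1.76 in control cells. Tap1 thus exceeded Tap2 in every library of day 0 and, at day 2, in shMaf1 cells alone. The pair shared 24 windows of 51 bases, under 1% of either transcript.

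Tapbp (chr17:33919478-33929290, plus strand), which encodes the loading chaperone tapasin, moved least of the 10 in shMaf1 cells at day 2. It had 344 CPM in shMaf1 cells, 184 CPM in shBrf1 cells and 211 CPM in ML-60218 cells at day 2, against 233 CPM in control cells. At day 0 it had 397, 347 and 328 CPM, against 342 CPM in control cells. Its fold at day 2 was 1.47 in shMaf1 over control cells (1.43 to 1.52), and no comparison between conditions passed the size rule.

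Of the immunoproteasome subunits, Psmb8 and Psmb9 ranked per kilobase below all the genes above in every library, and Psmb10 ranked beside Tap1 and Tap2. Psmb8 (chr17:34198195-34201454, plus strand) had 34.0 CPM in shMaf1 cells, 6.05 CPM in shBrf1 cells and 8.58 CPM in ML-60218 cells at day 2, against 11.7 CPM in control cells. Its day 0 levels were 25.1, 16.7 and 17.6 CPM, against 20.2 CPM in control cells. Psmb8 was 2.91-fold higher in shMaf1 than in control cells at day 2 (2.58 to 3.30) and 1.93-fold lower in shBrf1 than in control cells (1.59 to 2.34).

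Psmb9 (chr17:34182099-34187330, minus strand), which shares its promoter stretch with Tap1, had 17.8 CPM in shMaf1 cells, 3.12 CPM in shBrf1 cells and 3.01 CPM in ML-60218 cells at day 2, against 6.37 CPM in control cells. The levels at day 0 were 8.13, 4.69 and 6.31 CPM, against 7.24 CPM in control cells. It was 2.79-fold higher in shMaf1 than in control cells at day 2 (2.36 to 3.31). These levels rest on 79 to 523 read pairs per library, the fewest of the set beside Nlrc5, so its intervals are wide.

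Psmb10 (chr8:105935728-105938392, minus strand) had 52.1 CPM in shMaf1 cells, 19.9 CPM in shBrf1 cells and 27.6 CPM in ML-60218 cells at day 2, against 32.6 CPM in control cells. At day 0 it had 57.4, 43.9 and 44.8 CPM, against 49.2 CPM in control cells. Its fold at day 2 was 1.60 in shMaf1 over control cells (1.47 to 1.73), smaller than those of Psmb8 and Psmb9. The shMaf1 library was again the highest and the shBrf1 library the lowest on both days.

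Of the constitutive subunits that these 3 stand in for, Psmb5 and Psmb7 were lowest in shMaf1 and highest in shBrf1 cells at day 2. Psmb5 had 69.4 CPM in shMaf1 cells, 113 CPM in shBrf1 cells and 102 CPM in ML-60218 cells, against 88.7 CPM in control cells. Psmb7 had 162, 303 and 238 CPM, against 202 CPM in control cells, and Psmb6 had 176, 177 and 190 CPM, against 147 CPM in control cells. None of the 3 passed the size rule in a comparison with control.

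Within a library, the ratio of an inducible to its constitutive subunit is free of the scaling between libraries. Per base, Psmb8 to Psmb5 was 0.270 in shMaf1 cells (0.2505 to 0.292), 0.0297 in shBrf1 cells (0.0251 to 0.0348) and 0.0467 in ML-60218 cells at day 2, against 0.0726 in control cells (0.0648 to 0.0813). Psmb9 to Psmb6 was 0.0596, 0.0104 and 0.00938, against 0.0256 in control cells. Psmb10 to Psmb7 was 0.285, 0.0579 and 0.103, against 0.143 in control cells. For all 3 pairs the shMaf1 ratio lay above control and the shBrf1 and ML-60218 ratios below it, with intervals that did not overlap that of control.

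At day 0 the same ratios were closer together. Psmb8 to Psmb5 was 0.236 in shMaf1 cells, 0.161 in shBrf1 cells and 0.185 in ML-60218 cells, against 0.215 in control cells. Psmb9 to Psmb6 was 0.0310, 0.0272 and 0.0329, against 0.0373 in control cells, and Psmb10 to Psmb7 was 0.369, 0.308 and 0.321, against 0.352 in control cells. The coding sequences of the pairs are 60.4% to 62.3% identical. Psmb8, Psmb9 and Psmb10 share no 51-base window with another gene, but 56.2% of the windows of Psmb5 also occur elsewhere, mostly in pseudogene copies, so its counts and the Psmb8 to Psmb5 ratio are uncertain in level.

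**Figure D3:**
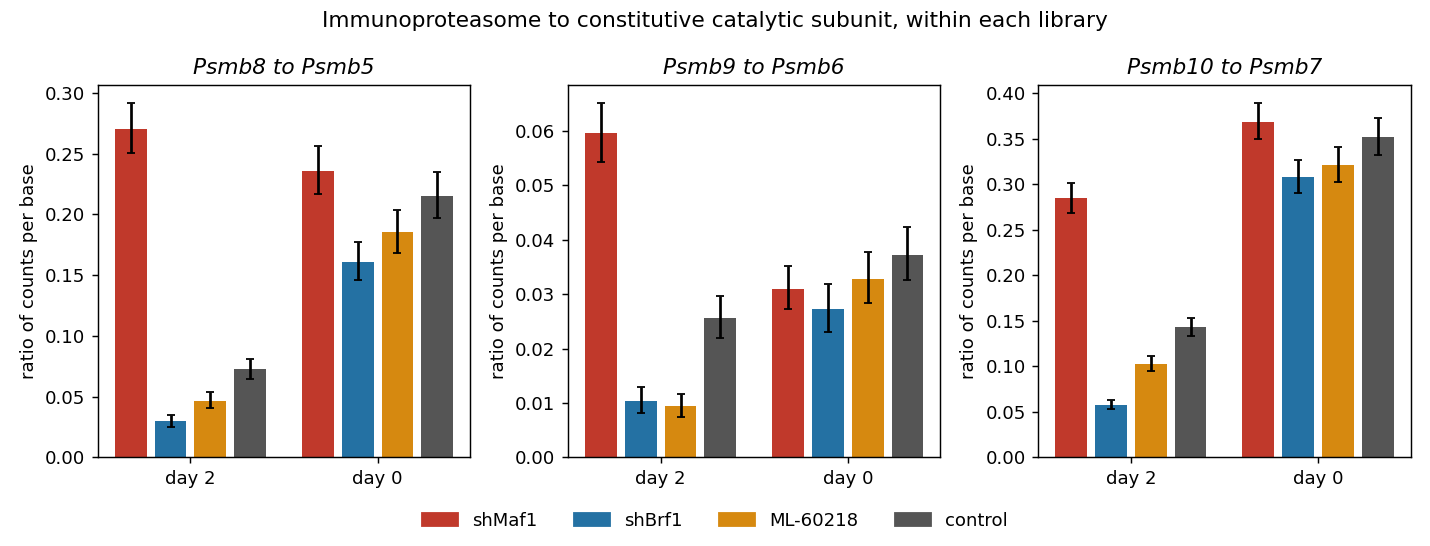
Ratio of counts per base of transcript between an inducible and its constitutive proteasome subunit within each library (Psmb8 to Psmb5, Psmb9 to Psmb6, Psmb10 to Psmb7; each axis starts at 0), with exact 95% counting intervals. At day 2 the shMaf1 bar is the highest in each panel, and at day 0 the 4 bars differ less.

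Nlrc5 (chr8:94472763-94527272, plus strand) encodes the activator of class I genes. At day 2 it had 17.4 CPM in shMaf1 cells, 2.85 CPM in shBrf1 cells and 3.01 CPM in ML-60218 cells, against 6.68 CPM in control cells. Its day 0 levels were 22.1, 12.9 and 17.2 CPM, against 21.9 CPM in control cells. It was 2.61-fold higher in shMaf1 than in control cells at day 2 (2.21 to 3.09), 2.34-fold lower in shBrf1 (1.78 to 3.10) and 2.22-fold lower in ML-60218 than in control cells (1.70 to 2.91). The lowest of these levels, in shBrf1 cells at day 2, rests on 74 read pairs.

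Before induction, at day 0, no member passed the size rule in any comparison with control. The median log2 ratio was 0.18 in shMaf1 over control cells, where 2.6% of all genes were higher and 1.02% lower. It was -0.32 in shBrf1 over control cells, where 0.489% were higher and 0.497% lower, and -0.17 in ML-60218 over control cells, where 0.041% were higher and 0.0738% lower. In shBrf1 cells H2-K1 was 1.85-fold lower than in control cells (1.79 to 1.91) and Nlrc5 was 1.70-fold lower (1.51 to 1.91), while B2m was 1.05-fold higher, a sign that turned under spike-in scaling and removal of a length trend. In shMaf1 cells counting intervals lay above a fold of 1 for 5 of the 10 genes and below it for 1. In shBrf1 cells they lay above for 1 and below for 8, and in ML-60218 cells below for 9. The share of all genes with such intervals was not computed. At these counts small folds also exclude 1, such as B2m at 1.07-fold lower in ML-60218 cells (1.06 to 1.09).

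Between the days, the set was lower at day 2 than at day 0 in control, shBrf1 and ML-60218 cells, and mixed in shMaf1 cells. In shMaf1 cells 6 of the 10 genes were above their day 0 level, with a median log2 ratio of 0.35. Psmb9 alone passed the size rule, 2.19-fold higher at day 2 than at day 0 (1.88 to 2.55), where 4.95% of all genes were higher and 5.57% lower. That call was lost with library totals alone and with spike-in scaling, each of which left 0 members higher, where 3.93% and 2.8% of all genes were. Tap2 was among the 6 at 1.20-fold, but fell below its day 0 level under spike-in scaling. B2m, at 1.69-fold lower at day 2 than at day 0, moved furthest down.

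In shBrf1 cells 5 of the 10 were lower at day 2 than at day 0 by the size rule (B2m, Tap1, Psmb8, Psmb10 and Nlrc5), with a median of -1.02. In that comparison 17.3% of all genes were lower and 14.7% higher. In ML-60218 cells 3 were lower (B2m, Tap1 and Nlrc5), with a median of -0.84, where 14.5% of all genes were lower and 12.3% higher. The count in ML-60218 cells depended on the setting. It was 5 lower at a pseudocount of 0.1 CPM (15.7% of all genes), and 6 with library totals (20.5%) or with a length trend removed (13.6%). Without a pseudocount Psmb8 and Psmb9 were 2.05- and 2.09-fold lower there. In control cells B2m, Tap1 and Nlrc5 were also the 3 that passed, with a median of -0.57, where 9.75% of all genes were lower and 9% higher. Spike-in scaling gave 10 lower in shBrf1, 10 in ML-60218 and 7 in control cells, where 58.2%, 62% and 28.6% of all genes were lower. All 10 genes were below their day 0 level in each of these 3 conditions.

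The genes differed in how far they fell. B2m was 4.50-fold lower at day 2 than at day 0 in shBrf1 cells, 4.14-fold in ML-60218 cells and 3.34-fold in control cells. Nlrc5 was 4.53-, 5.70- and 3.28-fold lower in the same order. H2-K1 and H2-D1 were the least affected of the class I chains, at 1.29- and 1.19-fold lower in control cells. Counted per base, B2m stood at 1.47 times the summed heavy chains in shMaf1 cells, 2.10 times in shBrf1 cells and 1.06 times in ML-60218 cells at day 2, against 1.41 times in control cells. At day 0 the same ratio was 3.57, 6.32 and 3.88, against 3.78 in control cells.

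The difference between the day 2 over day 0 response of a condition and that of control was above 0 for all 10 genes in shMaf1 cells, with a median of 0.92 on the log2 scale. It was 1 or more for Tap1 (1.84), Nlrc5 (1.30), Psmb9 (1.25) and Psmb8 (1.20). Of the 12873 genes so compared, 3.43% reached 1 or more. In shBrf1 cells it was below 0 for all 10, with a median of -0.36, and in ML-60218 cells below 0 for 8, with a median of -0.27. No member reached a size of 1 in these 2 conditions. Of all genes so compared, 4.86% were at -1 or less and 2.52% at 1 or more in shBrf1 cells. In ML-60218 cells these shares were 2.57% and 1.85%, so a count of 0 among 10 genes is near the background in both. None of these differences was tested, since each rests on 4 libraries with 1 per group.

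**Figure D4:**
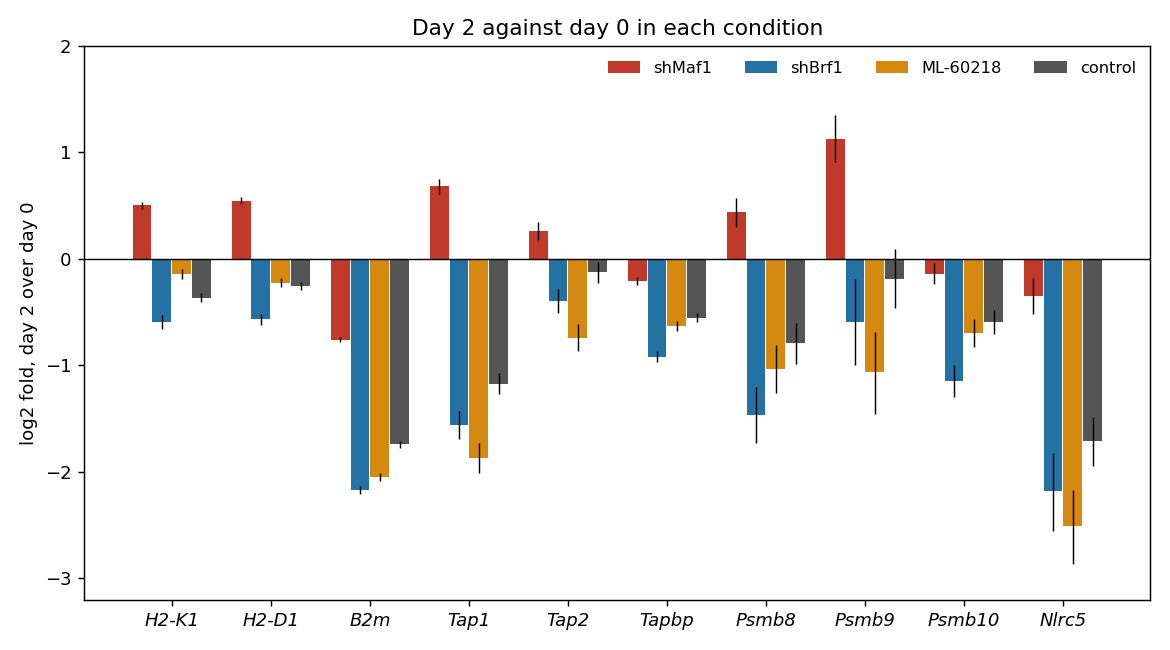
Log2 fold of each gene at day 2 over day 0 in shMaf1, shBrf1, ML-60218 and control cells, without pseudocount; lines are exact 95% counting intervals. Bars of shBrf1, ML-60218 and control cells all point down, with B2m and Nlrc5 among the longest, while 6 of the 10 shMaf1 bars point up.

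Ranked by level per kilobase of transcript, B2m came first in all 8 libraries, at 327 to 1531 CPM per kilobase. H2-K1, H2-D1 and Tapbp held ranks 2 to 4 in every library, at 63.4 to 325. Psmb10, Tap1 and Tap2 held ranks 5 to 7, at 6.49 to 46.2, and Psmb8, Psmb9 and Nlrc5 ranks 8, 9 and 10. Summed over the 10 genes, CPM per kilobase at day 2 was 1696 in shMaf1 cells, 607 in shBrf1 cells and 752 in ML-60218 cells, against 890 in control cells. The day 0 sums were 2099, 1980 and 1906, against 2059 in control cells. Neighbours in the order could not be told apart beyond culture error, which was not measured.

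The wider class I family was described by 19 other class I and class I-like genes, of which 12 had a mean of 1 CPM or more. In shMaf1 cells at day 2, 6 of the 12 were higher than in control cells and none lower, with a median log2 ratio of 1.13. Of all genes 4.57% were higher and 3.48% lower in that comparison. H2-Q4, which encodes a nonclassical class I chain, had 62.8 CPM in shMaf1 cells, 3.85 CPM in shBrf1 cells and 8.39 CPM in ML-60218 cells, against 19.0 CPM in control cells. H2-T23, which encodes Qa-1, had 23.2, 3.51 and 6.91 CPM, against 7.82 CPM in control cells. Both were highest in shMaf1 and lowest in shBrf1 cells. In shBrf1 cells 5 of the 12 were lower than in control cells, with a median of -0.92, where 5.5% of all genes were lower. In ML-60218 cells H2-Q4 alone was lower, with a median of -0.43, where 3.11% of all genes were lower. Class I genes of the Q and T regions are close copies of each other, and their counts are uncertain in the same way as those of H2-D1.

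Of 16 genes for peptide generation, trimming and loading, 0 were higher and 0 lower by the size rule in each of the 3 comparisons at day 2. The medians were 0.04 in shMaf1, 0.11 in shBrf1 and 0.20 in ML-60218 over control cells. Of all genes 4.57%, 3.11% and 1.77% were higher in the same order, and 3.48%, 5.5% and 3.11% lower. Counts of 0 among 16 genes are near these shares. Erap1, the aminopeptidase that trims peptides in the endoplasmic reticulum, had 64.6 CPM in shMaf1 cells, 25.1 CPM in shBrf1 cells and 34.0 CPM in ML-60218 cells, against 38.9 CPM in control cells. Calr, the chaperone calreticulin, had 1183 CPM in shMaf1 cells and 2128 CPM in ML-60218 cells, against 1505 CPM in control cells.

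Of 27 transcription factors and interferon pathway genes known to regulate class I genes, 2 were higher and 1 lower in shMaf1 than in control cells at day 2, beside 4.57% higher and 3.48% lower among all genes. Counts this small are near the background. Irf7, the interferon-induced master factor of type I interferon genes, had 69.2 CPM in shMaf1 cells, 2.27 CPM in shBrf1 cells and 1.98 CPM in ML-60218 cells, against 7.45 CPM in control cells. The levels at day 0 were 49.7, 59.6 and 58.4 CPM, against 69.3 CPM in control cells, so that shMaf1 was the lowest library at day 0 and the highest at day 2. Irf9, the DNA-binding part of the ISGF3 complex, was 3.07-fold higher in shMaf1 than in control cells at day 2 (2.85 to 3.31). Socs3, a feedback inhibitor of cytokine receptors, was 2.08-fold lower.

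In shBrf1 cells Irf7, Socs3, Stat2 and Socs1 were lower than in control cells at day 2, and in ML-60218 cells Irf7, Socs1 and Stat2, beside 5.5% and 3.11% of all genes lower. Stat2, a subunit of the ISGF3 complex, had 42.6 CPM in shBrf1 cells and 47.2 CPM in ML-60218 cells, against 101 CPM in control cells. No regulator passed the rule at day 0, where 0.041% to 2.6% of all genes were higher and 0.0738% to 1.02% lower.

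**Figure D5:**
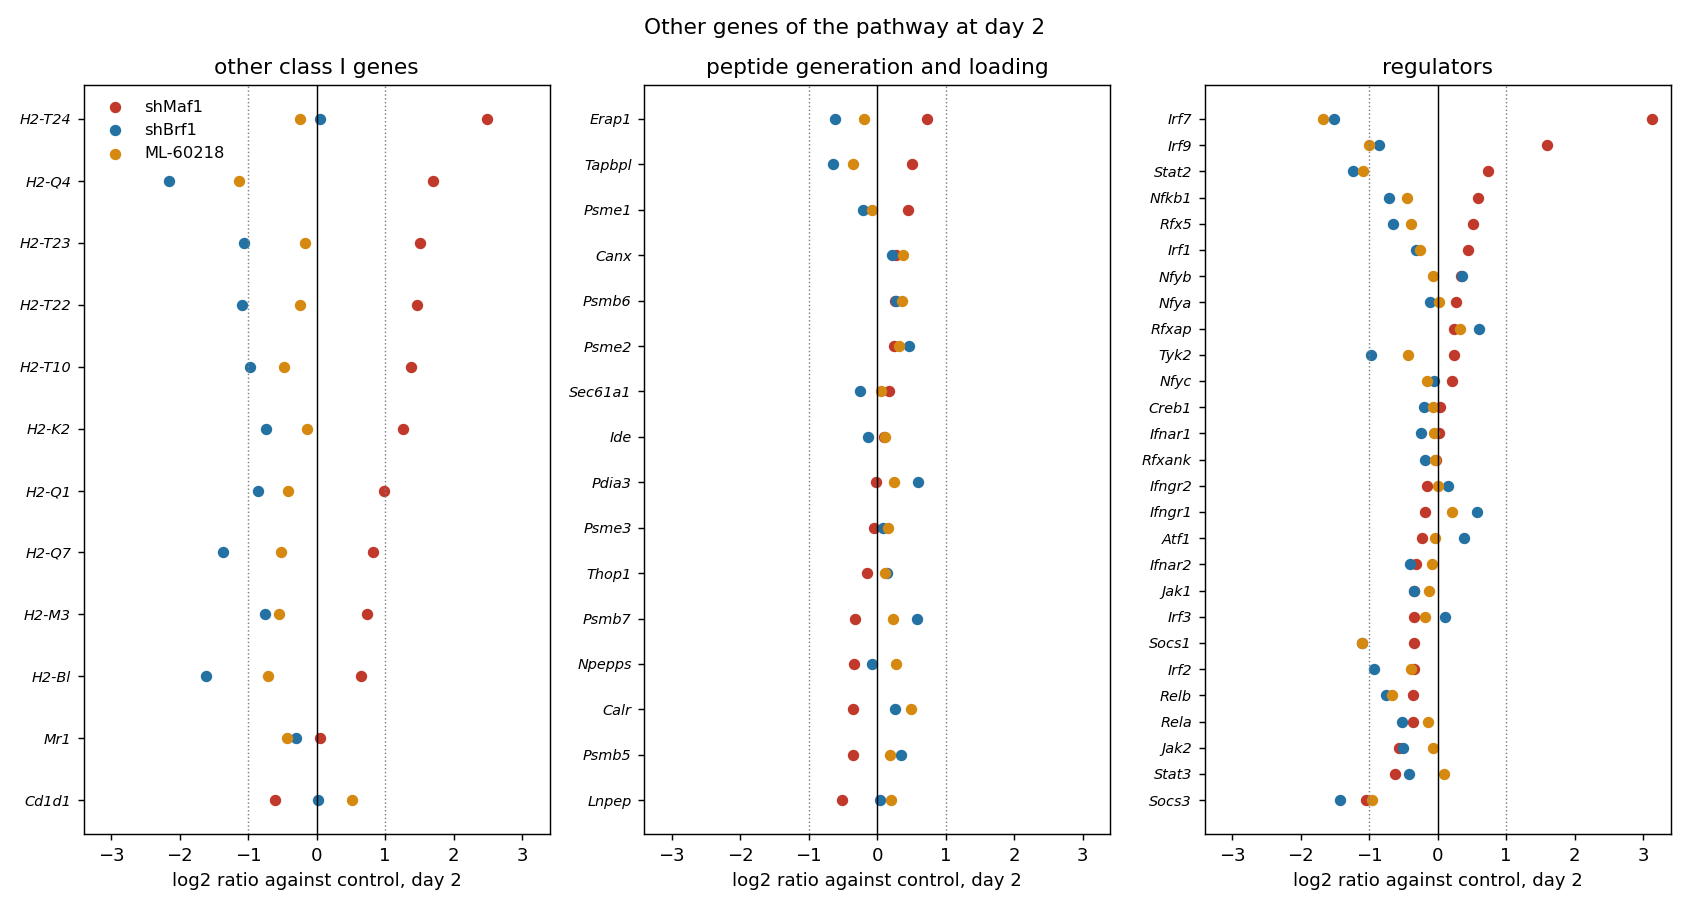
Log2 ratio at day 2 over control cells (0.5 CPM added) for the measured genes of 3 lists: other class I genes, peptide generation and loading, and regulators; 1 point per perturbed library, ordered by the shMaf1 value, with dotted lines at -1 and 1. Most other class I genes lie right of 0 in shMaf1 and left of 0 in shBrf1 cells, all loading genes lie between the dotted lines, and Irf7 lies furthest out among the regulators.

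The summed adipocyte markers moved opposite to the set at day 2. The 5 adipocyte markers (Fabp4, Adipoq, Plin1, Cidec and Lipe) summed to 66.0 CPM in shMaf1 cells, 1557 CPM in shBrf1 cells and 1023 CPM in ML-60218 cells, against 288 CPM in control cells. The 7 fibroblast markers summed to 20873, 10011 and 10012 CPM, against 18568 CPM in control cells. Col1a1, Col1a2 and Col3a1 made up most of each sum, and the markers did not move alike in shMaf1 cells. Thy1 had 59.2 CPM there, against 222 CPM in control cells, Col3a1 8777 against 10368 CPM and Pdgfra 1191 against 1365 CPM. Col1a1, Col1a2, Dcn and Lum were above control. Among the 4 libraries of this day, those with a higher adipocyte marker sum thus had a lower sum of the 10 class I pathway genes. Single genes did not all follow. H2-K1 had 263 CPM in ML-60218 cells, against 251 CPM in control cells, and B2m, Tap1, Tap2 and Psmb9 were lowest in ML-60218 rather than shBrf1 cells. At day 0 the adipocyte sums were 8.78 to 23.9 CPM. The 3′ bias score at day 2 was 0.08 in shMaf1, 0.36 in shBrf1 and 0.22 in ML-60218 cells, against 0.15 in control cells, and spike-in reads per 1000 aligned reads were 4.98, 8.14 and 7.76, against 5.46 in control cells. The part of differentiation state, 3′ bias, ribosomal share and RNA content in these results was not tested.

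Of the 10 immune cell markers 9 were in the tables. They summed to 3.13 CPM in shMaf1 cells, 0.887 CPM in shBrf1 cells and 0.763 CPM in ML-60218 cells at day 2, against 1.08 CPM in control cells. Cd74, the invariant chain of class II molecules, made up most of each sum, with 3.02 CPM in shMaf1 cells, 0.66 CPM in shBrf1 cells and 0.72 CPM in ML-60218 cells, against 0.61 CPM in control cells. At day 0 the list summed to 36.2, 12.7 and 14.0 CPM, against 19.1 CPM in control cells. The defining markers Ptprc and Cd3e were at or near 0 in all 8 libraries, as were the endothelial and epithelial lists, which stayed under 2.25 and 0.57 CPM in sum.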

How the data were processed

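Per the submitters' processing notes, STAR 2.4 and the build mm10 were used, and per the labels' protocols the libraries came from the TruSeq Stranded mRNA kit. The counting tool, annotation and strand setting are not given in the sources used here. The authors deposited 6 comparison tables with estimated counts (expected counts) per gene, whole numbers that are not normalised, in columns named as means that each hold 1 library. They also deposited a log2 fold change per gene, whose normalisation the tables leave unstated. Per the file headers, the quality tables give the ribosomal share of reads in percent, read lengths and counts of spike-in (ERCC) reads. Per the explanation sheet deposited with them, they give a score for 3′ bias (0 for none) and counts of aligned reads. The same sheet names the share of ambiguous reads in percent (44.35% to 49.98%).

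All 8 libraries were scaled together with TMM (edgeR 4.0.16, R 4.3.3), and CPM and log2 ratios (0.5 CPM added) were computed from them. No test between conditions was made, as each group has 1 library. Fold intervals are exact conditional binomial (Clopper-Pearson) at 95%; the reads carry no molecular identifiers, so they cover counting error only. The size rule and intervals were tested on simulated data. Background shares count all genes with at least 1 CPM in either library. Levels per kilobase use, for each gene, the longest GENCODE M21 coding transcript matched to the table's RefSeq entries. As alternatives, libraries were scaled with DESeq2 1.42.0 size factors, by their totals or by spike-in reads, the pseudocount was 0.1 or 1, the floor was 0 or 5 CPM, the size rule was a fold of 1.5, a transcript-length trend was removed, or the authors' log2 fold change was used. TMM without the shBrf1 library of day 2, the spaced motif pair and coding in place of protein identity were chosen after seeing the data. Protein identity was not computed.

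The members and gene lists were chosen with earlier results of these data known. Named outside the 10 members were the 3 highest and 3 lowest log2 ratios of each list per comparison, and genes needed to spell out a count of 5 or fewer. Psmb5, Psmb6, Psmb7 and the 8 genes of most similar profile, with predicted and unnamed genes left out, were named as well. The text gives a selection of these. From the list of regulators 1 gene was left out of counts and plots, and from the immune cell markers 1 is not named; their values are not reported here.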

Additional observations from a re-analysis of the deposited data

Results flagged for a closer look

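In 6 genes the day 2 over day 0 log2 ratio was positive in shMaf1 cells and negative in control cells. For Psmb9, at 1.08 in shMaf1 cells, against -0.17 in control cells, the control interval included a fold of 1. For the other 5 both intervals excluded it, and the difference between the conditions was 0.87 for H2-K1, 0.80 for H2-D1, 1.84 for Tap1, 0.39 for Tap2 and 1.20 for Psmb8. Tap1, for example, had 0.68 in shMaf1 cells, against -1.16 in control cells. For H2-D1 the shMaf1 over control ratio was also 0.72 at day 2, against -0.08 at day 0, a difference of 0.80, which is the same quantity taken the other way. B2m had a shBrf1 over control ratio of -0.35 at day 2, against 0.08 at day 0, a difference of -0.43. H2-K1 had an ML-60218 over control ratio of 0.07 at day 2, against -0.16 at day 0, a difference of 0.23. Opposite signs in 1 library per group drew attention to these values, and the differences were not tested.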

How the results depend on the processing

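DESeq2 size factors and a floor of 0 or 5 CPM in place of 1 left every count of members past the size rule within 1.5 times its value. So did the authors' deposited log2 fold change, which covers the comparisons with control alone, and TMM without the shBrf1 library of day 2, for the comparisons that do not use that library. Spike-in scaling moved most values, and the cause was not tested. It shifted the median log2 ratio of all genes at day 2 over control by 0.15 in shMaf1, -0.65 in shBrf1 and -0.58 in ML-60218 cells, and of day 2 over day 0 by -0.33, -1.17 and -1.25, against -0.65 in control cells. Under it members lower than control numbered 1 in shBrf1 cells at day 0 (1.06% of all genes), and 10 in shBrf1 (25.4%) and 5 in ML-60218 cells (12.6%) at day 2. Between days 0 were higher (2.8% of all genes) and 1 lower (11%) in shMaf1 cells, 10 lower in shBrf1 (58.2%), 10 in ML-60218 (62%) and 7 in control cells (28.6%), and the median response differences from control were 1.26, -0.89 and -0.86. The sign turned for Tap2 in shMaf1 cells between days (-0.073), B2m in shBrf1 cells at day 0 (-0.0541) and H2-K1 in ML-60218 cells at day 2 (-0.54). With library totals H2-K1 also turned (-0.035). Between days 0 members were then higher in shMaf1 cells (3.93% of all genes), and 6 were lower in ML-60218 cells (20.5%). Removal of a length trend turned H2-K1 in ML-60218 cells (-0.00661) and B2m in shBrf1 cells (-0.000551). It gave 6 lower in ML-60218 cells between days (13.6% of all genes). A pseudocount of 0.1 gave 5 there (15.7%). One of 1 left 1 member lower than control at day 2 in shBrf1 cells (H2-K1, beside 4.34% of all genes) and 1 in ML-60218 cells (Tap1, beside 2.33%). A fold of 1.5, a looser rule, called 9 higher in shMaf1 (10.8% of all genes), 7 lower in shBrf1 (15.1%) and 4 lower in ML-60218 cells (8.86%) at day 2, and 2 lower in shBrf1 cells at day 0 (2.55%). Between days it called 2 higher (12%) and 1 lower (13.2%) in shMaf1, 8 lower in ML-60218 (25%) and 5 lower in control cells (19.3%). No paired analysis was possible because each group has 1 library, which also means that the spread between cultures is unknown. Removal of the length trend used 91.93% of 12137 expressed genes.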

Other observations

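Across the 8 libraries, the log2 CPM profiles of 10496 genes averaging at least 5 CPM were compared with the mean profile of the 10 members. The members and all predicted or unnamed genes were then left out. The 8 most similar of the remaining genes were Ankrd26, Gpc4, Atxn7l2, Limd2, Slfn9, Wnt5a, Lrch2 and Gba2. Their Pearson r with that profile was 0.987 to 0.993, a description over 8 libraries that share scaling and differentiation state. Slfn9, of the Schlafen family, had 71.5 CPM in shMaf1 cells, 8.83 CPM in shBrf1 cells and 9.31 CPM in ML-60218 cells at day 2, against 16.7 CPM in control cells. Wnt5a, a secreted ligand, had 78.8, 14.2 and 17.6 CPM, against 31.7 CPM in control cells. Within the set, Psmb8 was closest to the mean profile (r = 0.988) and H2-K1 furthest from it (r = 0.793).

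H2-T24, another class I gene, rested on few counts. It had 90 read pairs in shMaf1 cells, 4 in shBrf1 cells and 1 in ML-60218 cells at day 2, against 4 in control cells, and 83 to 131 in the 4 libraries of day 0.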
